A study of Mus musculus with 6 samples.

Results

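The genes described here are the 81 whose transcripts were most strongly lost when MuTuDC1940 cells were given poly(I:C). The line comes from mouse dendritic cells and resembles the conventional subset called cDC1, which shows engulfed antigen to killer T cells. Poly(I:C), a man-made double-stranded RNA, imitates RNA of viruses, and cells were exposed to 5 µg/ml of it over 18 hours. The control cells received none, and the labels name no other agent, transgene or allele in either group. The labels describe 1 cell line, and they do not say whether samples of a group were separate cultures.

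Polyadenylated RNA of 3 untreated and 3 treated samples was sequenced, and 2 libraries per group are compared here. These are the libraries headed NT01 and NT02 (untreated) and PolyIC01 and PolyIC02 (treated). The header of the deposited table has 5 names for 6 value columns, and only these 4 columns belong to the same group however it is read. Values are in TPM, a length-corrected share of each library, summed over the RefSeq transcripts of a gene. The unit holds no depth, which is therefore unknown, and no counting interval is given.

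A gene was a member when its untreated mean was at least 3 TPM, its treated mean was at most 0.35 times that, and both treated values lay below both untreated ones. Of 9908 genes with an untreated mean of at least 3 TPM, 104 (1.05%) met these conditions. The members are the 81 left after 6 genes named in the rule, 1 solute carrier gene and 16 predicted genes were set aside, or 0.872% of the 9294 genes that remained eligible. The fall itself therefore chose the members, so their falls are described and not tested. The 3 members nearest the ratio limit were Esco2 at 0.3455, Tm6sf1 at 0.344 and H2ac23 at 0.343. Just outside it lay Tmem238 and Cdca3, both at 0.351, and Naa10 and Cks1b at 0.353 and 0.354. Nearest the level limit were Myh7b inside it, at an untreated mean of 3.01 TPM, and Rab25 outside it, at 2.94 TPM.

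A resting dendritic cell samples its surroundings, takes up dying cells and still divides if it is a cell line. When it senses double-stranded RNA it matures, which is known to turn on interferon-response, migration and T cell-stimulating genes and to slow division. Genes whose transcripts fall at the same time are described less often. The members here include genes of enzymes, receptors and cell division.

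Promoter sequences are shown for 5 members. The first 4 had the lowest treated share among members with at least 20 TPM in untreated cells and a sequence in the table, and Depdc1a is the most abundant member of the mitosis list. Each is the RefSeq window of 250 bases before to 50 bases after a start of the gene (GRCm38.p6), written 5′ to 3′ on the gene's strand. For Dmpk and Depdc1a that start lies inside the annotated gene, which begins at 19083646 and 159495414. Capitals mark matches, on either strand, to any of 12 short motifs, whose shares over all promoters are given with the promoter results. They lie at chr3:135280971-135281270 (plus strand) for Bdh2, chr9:121916256-121916555 (minus) for Cyp8b1, chr7:19083608-19083907 (plus) for Dmpk, chrX:101734098-101734397 (minus) for Cxcr3 and chr3:159495183-159495482 (plus) for Depdc1a.
Bdh2: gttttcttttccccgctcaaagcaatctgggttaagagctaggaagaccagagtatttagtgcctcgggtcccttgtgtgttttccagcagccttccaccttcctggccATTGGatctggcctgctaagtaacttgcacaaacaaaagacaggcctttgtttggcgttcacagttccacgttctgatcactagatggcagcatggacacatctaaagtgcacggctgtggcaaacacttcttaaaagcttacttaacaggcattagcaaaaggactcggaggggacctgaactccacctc
Cyp8b1: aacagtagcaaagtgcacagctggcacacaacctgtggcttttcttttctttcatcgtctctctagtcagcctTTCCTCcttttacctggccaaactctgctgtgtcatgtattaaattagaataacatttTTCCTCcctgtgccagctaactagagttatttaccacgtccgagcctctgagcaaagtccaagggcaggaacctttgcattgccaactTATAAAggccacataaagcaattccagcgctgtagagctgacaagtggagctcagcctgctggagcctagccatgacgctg
Dmpk: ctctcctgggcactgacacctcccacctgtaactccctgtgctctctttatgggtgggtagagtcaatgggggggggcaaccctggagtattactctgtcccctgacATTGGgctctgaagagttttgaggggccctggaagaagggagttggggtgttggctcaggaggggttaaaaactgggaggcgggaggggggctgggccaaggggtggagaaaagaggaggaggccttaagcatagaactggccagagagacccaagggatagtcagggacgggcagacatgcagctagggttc
Cxcr3: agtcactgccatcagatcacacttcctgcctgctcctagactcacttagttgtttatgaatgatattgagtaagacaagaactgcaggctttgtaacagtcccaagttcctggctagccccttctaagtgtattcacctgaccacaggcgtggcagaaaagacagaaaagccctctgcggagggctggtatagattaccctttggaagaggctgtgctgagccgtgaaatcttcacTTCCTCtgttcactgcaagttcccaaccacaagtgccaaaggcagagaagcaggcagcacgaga
Depdc1a: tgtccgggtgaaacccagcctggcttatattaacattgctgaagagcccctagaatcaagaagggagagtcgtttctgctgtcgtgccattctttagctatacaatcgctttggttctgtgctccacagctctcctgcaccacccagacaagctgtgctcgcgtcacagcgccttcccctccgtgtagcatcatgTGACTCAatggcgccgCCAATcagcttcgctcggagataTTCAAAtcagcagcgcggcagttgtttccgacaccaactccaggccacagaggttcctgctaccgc

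Cyp8b1 was the only one of these 5 windows with a TATAAA match, which began 31 bases before the start. Bdh2 and Dmpk each held 1 CCAAT match, written in reverse as ATTGG, at 141 and 143 bases before the start. Depdc1a held a TGANTCA match, the AP-1 motif, 55 bases before the start, a CCAAT match 39 bases before and a TTTGAA match (in reverse, TTCAAA) 16 bases before the start. TTTGAA is the core of the cell-cycle homology region found in many genes of mitosis. Cxcr3 and Cyp8b1 held GAGGAA, in reverse TTCCTC, 1 and 2 times. Distances run from the start that each window uses. The CCAAT match of Dmpk and the TTTGAA match of Depdc1a lie inside the annotated gene.

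**Figure D1:**
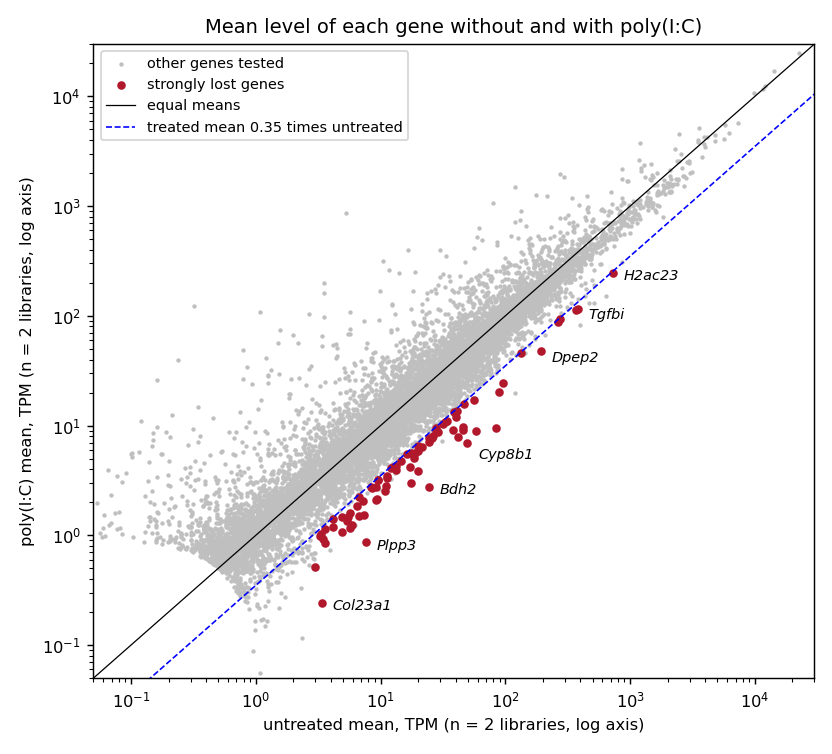
Mean TPM of every tested gene in untreated (x axis) and poly(I:C)-treated (y axis) cells, both on log axes, each the mean of 2 libraries. The strongly lost genes (red) lie on or below the dashed line of a ratio of 0.35, from 3.01 to 723 TPM in untreated cells. Grey points below that line are genes under the level limit or set aside by symbol, and Snora23, at 0 in treated cells, is not drawn.

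The 81 genes covered a wide range of levels. Their untreated means ran from 3.01 to 723 TPM with a median of 17.3 TPM, and their treated means from 0 to 248 TPM with a median of 4.23 TPM. In untreated cells 30 members lay under 10 TPM, 44 between 10 and 100 TPM and 7 at or above 100 TPM. The median treated share was 0.295 of the untreated mean. A share under 0.2 was reached by 11 members, 32 lay from 0.2 to under 0.3, and 38 at 0.3 or more. Together the members held 3856 and 3918 TPM of the untreated libraries and 1131 and 1176 TPM of the treated ones.

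Loss was seldom complete. Snora23 was listed at 0 in both treated libraries, and the other 80 members were above 0 in both. Treated means stayed at or above 10 TPM for 17 members and were under 1 TPM for 7. In 80 members the lowest untreated value was at least 2 times the highest treated value, and Rab3ip was the exception. Over the 12520 genes whose mean reached 0.5 TPM, which include all 81 members, 42.4% had both treated values below both untreated ones. The rule demanded this of the members, so nothing is read from it.

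Libraries of a group gave close values for most members. The higher untreated value was more than 1.5 times the lower one for Snora23, Rab3ip, Cxxc5 and Fancd2, and the higher treated value for Phlda2, Fancd2, Fam234a and Rab3ip. The median ratio within a group was 1.05 for the untreated and 1.09 for the treated pair. In whole-culture RNA a loss of cells that carry a transcript and a loss of transcript per cell cannot be told apart.

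**Figure D2:**
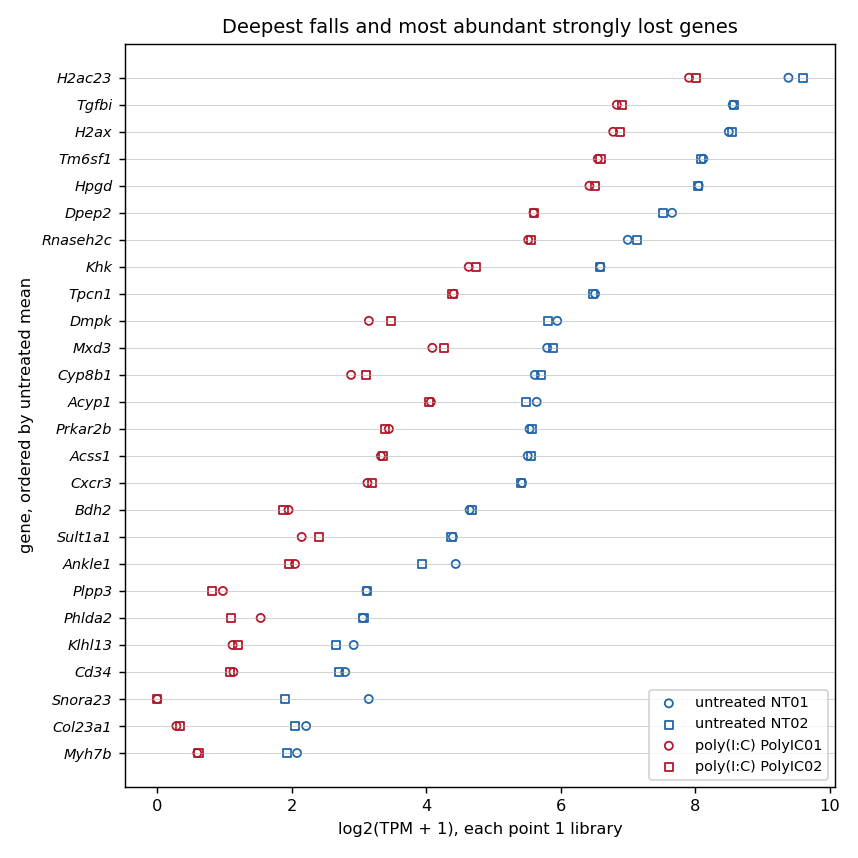
log2(TPM + 1) of 26 strongly lost genes in each of the 4 libraries, ordered by untreated mean (blue, untreated; red, poly(I:C); circles and squares, the 2 libraries of a group). In each gene both treated points lie left of both untreated points; Snora23, at 7.85 and 2.73 TPM in untreated cells, has the widest untreated spread.

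The label of the cells was set against marker genes, which were tested with limma like all genes that are not members. Of the 12520 tested genes 32.4% fell and 28.4% rose at a Benjamini-Hochberg adjusted p under 0.05. The 16 cDC1 markers summed to 6836 and 6826 TPM in untreated and 6631 and 6770 TPM in treated libraries. Irf8, a transcription factor gene needed for the lineage, lay between 2477 and 2639 TPM in the 4 libraries, and Itgae was under 1 TPM in all of them. Of the 16 markers 5 fell, 6 rose and 5 did not pass, and none was a member; 3 rose without PolyIC02. Those that fell were Cd24a, from 382 to 142 TPM, Tlr3, the sensor of double-stranded RNA in endosomes, from 253 to 144 TPM, Flt3, from 9.52 to 5.31 TPM, and Batf3 and Cd8a. Xcr1, a chemokine receptor gene, rose from 192 to 331 TPM. Gpr141b, which is also used to mark cDC1, was not among the 16 and is a member.

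Markers of other cell types moved as well. Macrophage and monocyte markers summed to 290 and 288 TPM in untreated and 430 and 450 TPM in treated libraries, and of 7 tested 5 rose, among them C1qa and C1qb, and Lyz2 fell. The cDC2 markers summed to 17.2 to 18.6 TPM in untreated and 43.2 to 43.8 TPM in treated libraries, with Cd4 and Sirpa higher, Itgam lower and Clec4a4 and Cd209a listed at 0. Plasmacytoid dendritic cell markers summed to at most 202 TPM in an untreated library and to 1303 and 1277 TPM in the treated ones, nearly all of it Bst2, which interferon is known to induce; of 4 tested 2 rose and 1 fell, and 2 fell without NT02. Both tested epithelial markers, Epcam and Cdh1, fell, and the list summed to 10.3 and 11.6 against 7.74 and 7.80 TPM. The B cell marker Ms4a1 and the T cell marker Cd3d rose, with lists of at most 7.05 and 2.52 TPM in any library. No NK cell marker and no fibroblast marker reached a mean of 0.5 TPM. The part of other cell types in the falls was not tested.

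**Figure D3:**
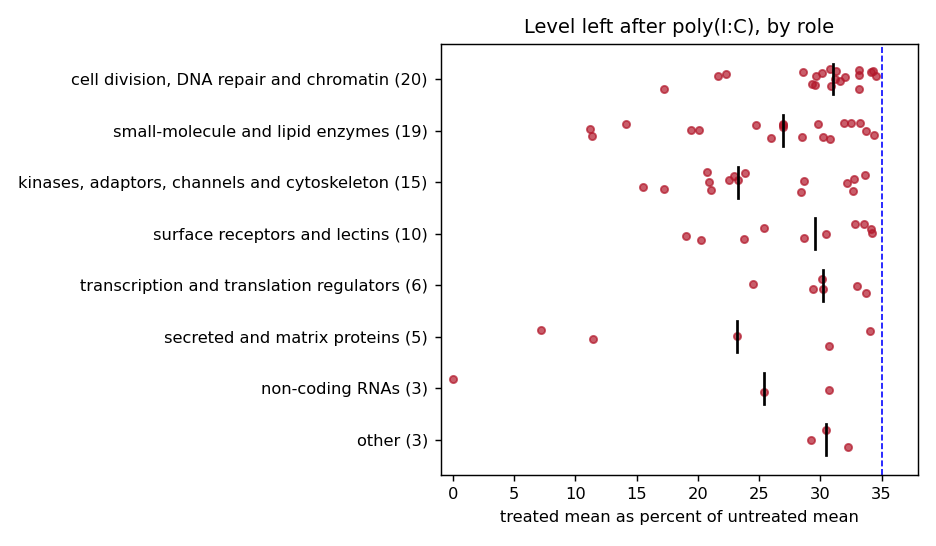
Treated mean as a percent of the untreated mean for the 81 genes, grouped by textbook role with the number of genes in brackets (each point 1 gene, black bar the group median, dashed line the limit of 35% set by the rule; vertical scatter within a row has no meaning). The rows overlap: medians lie between 23.2% and 31.0%.

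Enzymes of small molecules and lipids made up 19 of the members. The deepest loss among them was that of Plpp3, a phosphatase that removes phosphate from bioactive lipids. It lay at 7.64 and 7.72 TPM in untreated and at 0.966 and 0.759 TPM in treated cells, 11.2% of the untreated mean. Bdh2, a cytosolic dehydrogenase related to the enzymes of ketone bodies, lay at 24.0 and 24.7 against 2.87 and 2.67 TPM (11.4%). Cyp8b1, the sterol hydroxylase that sets the balance between bile acids, lay at 48.0 and 51.0 against 6.37 and 7.60 TPM (14.1%). Cyp8b1 is best known from liver, and its untreated level here was above the median of the members.

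Further enzymes handle acetate, fructose, alcohols and sulfate. Acss1, which makes acetyl-CoA from acetate in mitochondria, went from 44.5 and 46.2 to 9.03 and 9.23 TPM (20.1%). Khk, the first enzyme of fructose breakdown, went from 95.4 and 94.8 to 23.8 and 25.6 TPM (25.97%). Sult1a1, which adds sulfate to phenols, went from 20.1 and 19.8 to 3.43 and 4.30 TPM (19.4%), and curated transcripts held 27.8% of its untreated TPM. Adh1, an alcohol dehydrogenase, went from 18.6 and 18.8 to 5.56 and 4.52 TPM (27.0%).

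Hpgd and Dpep2 act on lipid mediators and were among the most abundant members. Hpgd, which inactivates prostaglandins, went from 264 and 262 to 85.0 and 89.7 TPM (33.2%). Dpep2, a membrane dipeptidase that cleaves cysteinyl leukotrienes, went from 201 and 183 to 47.3 and 47.5 TPM (24.7%). Its neighbour and relative Dpep3 lay at 10.8 and 7.48 against 2.67 and 2.84 TPM (30.2%). Tm6sf1, a membrane protein gene of lysosomes, was at 277 and 270 against 92.8 and 95.4 TPM. The remaining enzyme genes (Kyat3, Gchfr, Acyp1, Msrb3, Cox7a1, Abhd15, Gbgt1 and Nt5dc2) kept between 26.9% and 33.7% of their untreated means. Among them Gchfr encodes the feedback regulator of the first step of tetrahydrobiopterin synthesis, Msrb3 a methionine sulfoxide reductase and Cox7a1 a respiratory chain subunit.

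Other genes of these pathways are not members and were tested with the same limma fit. Of 21 tested genes of ketone body and mitochondrial fatty acid oxidation, 15 fell and 2 rose, with a median log2 change of -0.39 beside -0.02 over all tested genes. Acat1, the thiolase that joins acetyl-CoA units, fell from 46.8 ± 0.787 to 19.9 ± 0.373 TPM (mean ± SD, n = 2; log2 change -1.20, limma adjusted p = 1.24e-05), and Acaa2 from 41.6 ± 2.11 to 19.6 ± 0.337 TPM. Acadl, a long-chain acyl-CoA dehydrogenase gene, rose from 449 ± 0.660 to 1229 ± 5.68 TPM (log2 change 1.45, limma adjusted p = 8.61e-07). Bdh1, the mitochondrial relative of Bdh2, lay at 8.54 TPM in untreated and 8.53 TPM in treated cells (log2 change -0.003, SE 0.070, limma adjusted p = 0.973). Bile acid, oxysterol and peroxisomal genes showed no common direction, with 5 of 14 lower, 4 higher (2 without PolyIC01) and a median log2 change of 0.02. Hsd17b4, an enzyme of peroxisomal oxidation, fell from 62.7 ± 0.434 to 27.6 ± 0.235 TPM (-1.15). Acaa1a, of the same list, rose from 75.3 ± 1.55 to 139.6 ± 0.531 TPM (0.88).

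Of 9 tested genes that make or process eicosanoids besides Hpgd, 7 fell and 1 rose. Alox5ap, the partner protein of leukotriene synthesis, fell from 440 to 174 TPM (log2 change -1.33, SE 0.042, limma adjusted p = 8.05e-06), and Ltc4s, which makes the first cysteinyl leukotriene, from 16.2 to 7.37 TPM (-1.03). Alox5, the lipoxygenase gene of that synthesis, had means of 0.00469 TPM in untreated and 0.0115 TPM in treated cells and was not tested. Ptgs1, the constitutive cyclooxygenase gene, fell from 83.4 to 41.1 TPM (-1.004). Hpgds, a prostaglandin D synthase gene, rose from 42.1 to 65.9 TPM (0.64). With curated transcripts only, 6 of the 9 fell. These relatives, and those given for other members below, share a family name, complex or pathway with a member. They were chosen after the members were known.

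Surface receptors and lectins made up 10 members. Cxcr3, the receptor for the interferon-induced chemokines CXCL9 and CXCL10, lay at 42.0 and 41.5 TPM in untreated and 7.73 and 8.16 TPM in treated cells (19.0%). It was the only CXC chemokine receptor gene among the members, and the 3 others that could be tested rose, among them Cxcr4 from 8.59 to 20.6 TPM (log2 change 1.17, SE 0.061, limma adjusted p = 3.72e-05). Cxcr2 and Cxcr6 were at or under 2.01 TPM in both groups. Without NT02, PolyIC01 or PolyIC02 1 of these receptor genes rose.

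The other surface genes were lower in level. Gpr141b, an orphan receptor gene also called Karma and used to mark cDC1, went from 10.8 and 11.2 to 2.79 and 2.79 TPM (25.4%). Cd34, a sialomucin of progenitor cells, went from 5.94 and 5.49 to 1.19 and 1.13 TPM (20.3%). Il1rl1, the receptor for the alarmin IL-33, went from 3.68 and 3.55 to 0.824 and 0.894 TPM (23.8%). Its predicted transcripts held most of its TPM, and the curated ones held 8.93%. Klrd1, the CD94 gene, lay at 4.51 and 3.79 against 0.972 and 1.41 TPM. Klrc1, Klrc2 and Klrc3, which encode its partner chains, had group means of at most 0.111 TPM and were not tested. The chromosomal neighbour of Klrd1, the NKG2D gene Klrk1, rose from 14.7 to 26.9 TPM (log2 change 0.83, SE 0.072, limma adjusted p = 0.000267).

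Among lectins, Clec4a2, an inhibitory receptor gene of dendritic cells, lay at 30.7 and 32.7 against 10.8 and 10 TPM (32.9%), with 10.4% of its untreated TPM in curated transcripts. Siglecf, which binds sialic acid, lay at 16.03 and 16.4 against 5.45 and 5.64 TPM. Cd302, a C-type lectin gene, lay at 40.03 and 37.0 against 13.8 and 12.6 TPM. The related lectin gene Clec4b2 next to Clec4a2 fell from 12.1 to 4.34 TPM (log2 change -1.29, SE 0.073, limma adjusted p = 4.94e-05), and Clec4b1 from 61.1 to 43.5 TPM (-0.48). Lectin genes of this cluster resemble each other, and how TPM was divided among them is uncertain. Plxdc1 and Sdc2, a transmembrane protein and a heparan sulfate proteoglycan gene, kept 33.5% and 30.5%.

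Secreted and matrix proteins were 5 members. Tgfbi, an adhesive matrix protein gene induced by TGF-beta, was among the most abundant members, at 376 and 382 against 113 and 120 TPM (30.7%). Pf4, a chemokine best known from platelets, went from 11.5 and 10.2 to 2.65 and 2.40 TPM (23.2%). Its neighbour Ppbp, also a platelet chemokine gene, started under the level set for members and fell from 2.34 to 0.115 TPM (log2 change -1.59, SE 0.111, limma adjusted p = 0.000114). Of the other tested CXC chemokine genes 4 rose, among them Cxcl9 from 16.7 to 398 TPM (4.49), and 2 did not pass. Col23a1, a transmembrane collagen gene, went from 3.64 and 3.12 to 0.217 and 0.268 TPM, 7.18% of its untreated mean. The growth factor gene Nrg2 lay at 3.995 and 4.33 against 1.28 and 1.56 TPM.

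Cell division, DNA repair and chromatin genes were the largest group, with 20 members, and most lay close to the limit of the rule. Their median share was 0.310, and Ankle1, Mnd1 and H1f10 alone were under 0.25. Ankle1, a nuclease gene of blood-forming cells, went from 20.7 and 14.4 to 3.14 and 2.90 TPM (17.2%). Mnd1, a recombination partner best known from meiosis, went from 7.40 and 6.02 to 1.66 and 1.33 TPM (22.3%). H1f10, a linker histone gene, went from 5.01 and 4.87 to 1.25 and 0.889 TPM (21.6%).

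The most abundant genes of this group encode histones. H2ac23 lay at 669 and 777 against 239 and 257 TPM, and H2ax, the histone variant that marks DNA breaks, at 361 and 374 against 109 and 117 TPM. H2ac23 has near-identical copies, and most histone messages lack a poly(A) tail, so the level of H2ac23 in these libraries is uncertain. Of 15 other tested histone genes 4 fell, none rose and 11 did not pass. H1f0, a linker histone gene, fell from 310 ± 5.50 to 119 ± 0.304 TPM (log2 change -1.37, limma adjusted p = 1.93e-06). Without PolyIC02 8 of the histone genes fell. Rnaseh2c, a subunit of the enzyme that removes RNA from DNA, lay at 127 and 139 against 44.8 and 46.0 TPM (34.2%).

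Several members act in chromosome segregation. Spc24, part of the kinetochore complex that holds microtubules, lay at 41.2 and 39.3 against 11.99 and 11.9 TPM (29.7%). Kif15, a mitotic kinesin gene, lay at 21.3 and 21.4 against 5.98 and 6.87 TPM, and Bora, an activator of Aurora A, at 19.2 and 18.7 against 5.52 and 5.65 TPM. Esco2, which acetylates cohesin, lay at 28.3 and 27.2 against 9.93 and 9.22 TPM. Depdc1a, whose promoter is printed above, lay at 25.1 and 24.1 against 7.36 and 6.72 TPM (28.6%). In all 5 both treated values were close to each other. Depdc1b, Sapcd2, Arhgef39 and Lrr1 kept between 29.3% and 33.2%.

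Other members act in DNA repair. Fancd2, the central protein of the Fanconi anaemia pathway of crosslink repair, lay at 13.5 and 8.95 against 2.68 and 4.25 TPM, and Fancb at 6.58 and 6.76 against 2.34 and 2.09 TPM. Neil3, a glycosylase gene, lay at 29.8 and 25.8 against 9.28 and 8.51 TPM. Pif1 and Hrob, a helicase and a recombination factor gene, kept 31.3% and 33.2%. The pairs were more uneven for Fancd2 than for Fancb.

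Of 36 tested mitosis and cytokinesis genes that are not members 35 fell, with a median log2 change of -1.10, and Psrc1 rose. Ccna2, the S-phase and mitotic cyclin gene, fell from 174 ± 2.79 to 61.7 ± 0.195 TPM (log2 change -1.48, limma adjusted p = 2.04e-06), and Kif11 from 122 ± 5.45 to 44.0 ± 1.78 TPM (-1.45). Ccna2 and Kif11 missed the rule by its ratio alone. Cdca3, just outside the limit, fell from 139 ± 0.413 to 48.9 ± 1.72 TPM. Other partners of Spc24 in the same complex fell, Spc25 from 58.6 to 23.3 TPM (-1.30) and Ndc80 from 74.1 to 32.4 TPM (-1.17); the call for Nuf2 (-0.41, limma adjusted p = 0.0228) was lost without NT01 (adjusted p = 0.0531) and without PolyIC02 (adjusted p = 0.130). Of 8 other Fanconi genes tested 7 fell, from Fanci (-1.14) to Fance (-0.45), and Fancc did not pass (0.06). Rnaseh2a and Rnaseh2b fell by 0.50 and 0.34 on the log2 scale, against -1.53 for Rnaseh2c.

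Kinases, adaptors, channels and cytoskeletal genes made up 15 members. Dmpk, the kinase gene mutated in myotonic dystrophy, went from 60.7 and 55.3 to 7.86 and 10.2 TPM (15.5%). Dmwd, which ends 868 bases from it, fell from 27.6 ± 0.288 to 10.3 ± 1.01 TPM (log2 change -1.35, limma adjusted p = 4.80e-05). Of 16 tested genes of the list of related kinases and their partners 6 fell and 5 rose. Without NT01, PolyIC01 or PolyIC02 3 fell, and without NT02, PolyIC01 or PolyIC02 3 rose. The related kinase gene Cit fell from 19.7 ± 1.47 to 10.9 ± 0.309 TPM (-0.79), and Cdc42bpb did not pass (0.02). Cdc42bpg rose from 18.1 ± 1.74 to 87.6 ± 1.21 TPM (2.22) with all transcripts and fell by 1.15 on the log2 scale with curated ones only, so its direction is not settled.

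Dmpk held 6 transcripts with at least 1 TPM in untreated cells, and all of them were lower in treated cells. The major curated one held 47.3% of the gene's untreated TPM and went from 29.5 and 25.4 to 3.69 and 4.61 TPM. The next, a curated non-coding one with 24.7%, went from 15.3 and 13.3 to 2.58 and 3.01 TPM. The split between transcripts of a gene is an estimate of the quantification.

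Prkar2b, a regulatory subunit of the cyclic AMP-dependent protein kinase A, went from 45.4 and 46.4 to 9.89 and 9.45 TPM (21.0%). Of the 4 other tested subunit genes 3 fell: Prkar2a from 73.4 to 38.1 TPM (log2 change -0.93, SE 0.036, limma adjusted p = 1.46e-05), Prkacb from 17.9 to 12.7 TPM (-0.47) and Prkaca from 87.5 to 67.7 TPM (-0.37). Prkar1a did not pass, at 152 and 145 TPM. Map2k6, which activates p38 kinases, went from 20.1 and 20.1 to 6.18 and 6.98 TPM (32.7%), while of 6 other tested genes of its family 1 fell, 1 rose and 4 did not pass; 2 fell without NT01 and without NT02. The one that fell was Map2k3, which also activates p38, from 47.4 to 39.3 TPM (-0.26). Dapk2, a calmodulin-regulated kinase gene, went from 9.08 and 9.37 to 2.05 and 2.18 TPM (22.9%). Of its 3 tested relatives 2 fell, Dapk1 from 32.4 to 16.8 TPM (-0.91) and Stk17b from 198 to 154 TPM (-0.37). Dapk3 rose from 46.5 to 57.8 TPM (0.31).

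Tpcn1, a cation channel gene of endosomes and lysosomes, went from 90.2 and 87.9 to 20.25 and 19.97 TPM (22.6%). Its sister gene Tpcn2 did not pass, at 10.02 and 8.85 TPM (log2 change -0.16, SE 0.087, limma adjusted p = 0.166). Rhpn1, a scaffold gene, went from 38.2 and 38.2 to 8.58 and 9.60 TPM (23.8%), and Rnd3, a small GTPase gene, from 8.94 and 9.68 to 2.04 and 2.29 TPM (23.3%). Bank1, a scaffold of B cell receptor signalling, lay at 34.1 and 31.9 against 11.1 and 10.5 TPM, and Mctp1, a calcium-binding membrane protein gene, at 40.6 and 41.0 against 13.5 and 13.9 TPM. Phlda2, an imprinted gene of a small lipid-binding protein, lay at 7.32 and 7.38 against 1.90 and 1.14 TPM (20.7%), and Klhl13, an adaptor of a ubiquitin ligase, at 6.57 and 5.29 against 1.17 and 1.31 TPM (20.9%). Fgd1, Myo16 and Rab3ip kept between 28.4% and 32.2%.

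Myh7b, a muscle-type myosin gene, lay at 3.22 and 2.80 against 0.510 and 0.529 TPM (17.3%). Of its TPM, 0.143% in untreated cells came from curated transcripts, so its membership rests on predicted ones.

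**Figure D4:**
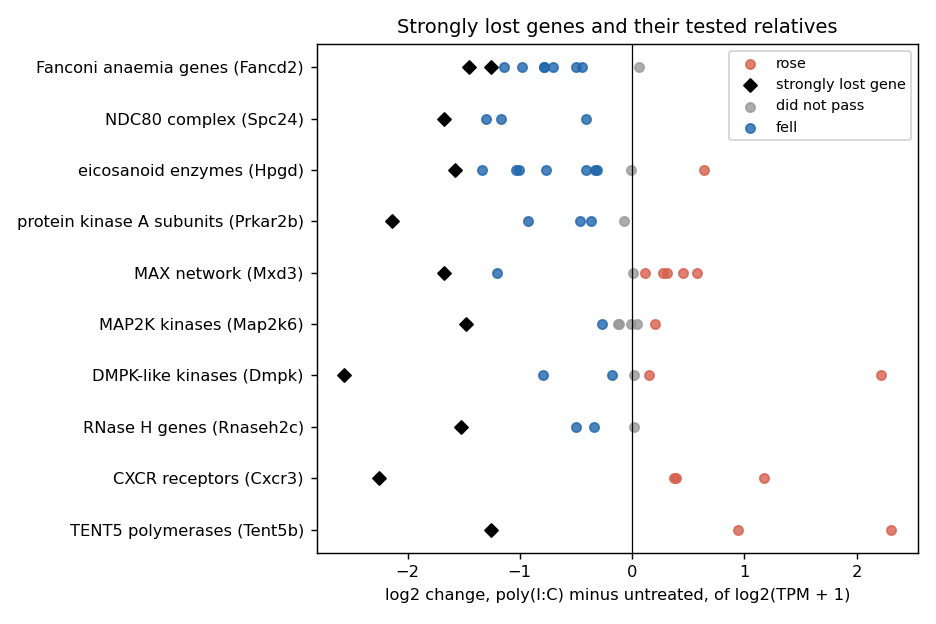
Change of log2(TPM + 1), poly(I:C) minus untreated, for 10 groups of genes that share a family name, complex or pathway. Black diamonds are strongly lost genes, and brackets name the gene that each row was listed for. The Fanconi row holds diamonds for Fancd2 (-1.45) and Fancb (-1.26). Circles are tested relatives (blue for fell, red for rose, grey for not passing limma at an adjusted p under 0.05). All relatives of Spc24 lie left of 0, while those of Cxcr3 and Tent5b lie right of it; the right-most DMPK-like kinase, Cdc42bpg, reverses with curated transcripts.

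Regulators of transcription and translation were 6 members. Mxd3, a partner of MAX that competes with MYC, lay at 54.7 and 58.4 against 16.04 and 18.1 TPM (30.2%). In the same network Mxd4 fell from 37.6 to 15.8 TPM (log2 change -1.20, SE 0.086, limma adjusted p = 0.000125), while 5 of 7 tested genes rose, among them Max from 124 to 186 TPM (0.58). Without PolyIC01 2 of the 7 rose. Lmo1, a LIM-domain cofactor gene, went from 25.4 and 26.7 to 7.78 and 7.55 TPM (29.4%), and Pax6, a homeobox factor best known from eye and pancreas, from 17.3 and 17.2 to 4.37 and 4.10 TPM (24.5%). Pax6 held 5 transcripts of at least 1 TPM in untreated cells, all curated and all lower in treated cells.

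Pdcd4, an inhibitor of translation initiation, lay at 12.3 and 12.1 against 4.11 and 4.13 TPM. Tent5b, a poly(A) polymerase gene, lay at 4.89 and 4.95 against 1.37 and 1.60 TPM (30.1%). Its relatives went the other way, Tent5a from 4.28 to 25.2 TPM (log2 change 2.31, SE 0.062, limma adjusted p = 4.58e-06) and Tent5c from 14.6 to 29.0 TPM (0.95). Cxxc5, a CXXC-domain gene, lay at 6.67 and 10.2 against 2.31 and 3.24 TPM, and its treated share was 0.4545 with curated transcripts only.

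The non-coding members were 3. Snora23, a small nucleolar RNA that guides pseudouridylation, was at 7.85 and 2.73 TPM in untreated cells and listed at 0 in treated ones. Rpph1, the RNA of RNase P, lay at 29.2 and 28.0 against 10.4 and 7.16 TPM. Both RNAs lack a poly(A) tail and are short, and the libraries were made by poly(A) capture. Of 10 other tested small nucleolar and Cajal body RNAs 1 fell and 9 did not pass, while 3 fell and 1 rose without NT01 and 3 fell without NT02. The call for the one that fell, Snord17, was lost without PolyIC01 (limma adjusted p = 0.127) and without PolyIC02 (adjusted p = 0.240), as well as with no filter on low values (adjusted p = 0.0822). Eldr, a long non-coding RNA gene, went from 5.60 and 5.14 to 1.28 and 1.45 TPM. Tchh, Cfap298 and Fam234a, which fit none of these roles, kept 29.2%, 30.5% and 32.2%.

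The members have 233 transcripts in the table, of which 146 had an untreated mean of at least 1 TPM. None of the 146 was higher in treated cells, 126 were at or under 0.35 of their untreated mean and 20 lay above it. The highest share was that of a curated Fam234a transcript, at 1.68 and 4.55 against 1.53 and 3.64 TPM (0.830). The gene sum chose the members and the untreated level chose the 146, so this is a description. Of all 233, 0 had a treated mean of at least 1 TPM that was above the untreated mean. For 11 members, curated transcripts held under 50% of the untreated TPM.

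The members were spread over the genome. They lie on 20 chromosomes, with at most 8 on 1 of them, and 4 members are next to another member among tested genes. These are Dpep2 and Dpep3, which are 5526 bases apart on chromosome 8, and Cxxc5 and Nrg2 on chromosome 18. The nearest tested genes on each side of the members gave 156 genes that are not members. Of these 66 (42.3%) fell, beside 32.4% of all tested genes, and 34 (21.8%) rose, beside 28.4%, with a median log2 change of -0.12. Among them Pbk, a mitotic kinase gene 1205 bases from Esco2, fell from 63.8 to 26.6 TPM (log2 change -1.23, limma adjusted p = 1.57e-05). Plekho2 beside Pif1 rose from 134 to 383 TPM (1.51). Iqcd overlaps Tpcn1 and fell from 2.91 to 0.689 TPM; no source used here says whether strand was used, so these genes may share reads.

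Promoter letters are given as shares with no test. A window was in the RefSeq table for 61 members and 10011 tested genes, and the first window of a gene was searched on both strands. GGGCGG was in 52.5% of member windows and 61.7% of all windows, CCAAT in 31.1% and 39.5%, GAGGAA in 24.6% and 26.9%, and TATAAA in 9.84% and 7.60%. TTTGAA was in 19.7% of member and 12.7% of all windows. In a split made after the values were seen, it was in 5 of the 12 windows of the cell division group. The other member windows held it in 14.3%. CCAAT was in 3 of the 12, as was TTGGCGC, an E2F-like site. TTGGCGC was in 6.56% of member and 4.40% of all windows, and the core of the interferon-stimulated response element in 3.28% and 3.44%. CACGTG was in 8.20% and 10.1%, TGACGTC in 1.64% and 5.76%, TGANTCA in 8.20% and 5.25%, TTCGCGC in 1.64% and 3.17% and TGTTTAC in 1.64% and 2.59%. A match is a run of letters and does not show that a factor binds there.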

How the data were processed

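RNA of 3 untreated and 3 poly(I:C)-treated samples was captured by poly(A) and made into stranded libraries, per the labels' protocols. Tools listed in the submitters' processing notes are bcl2fastq 2.20.0.422 and kallisto 0.42.4, beside the build GRCm38, without their roles. The authors deposited 1 table whose name says FPKM, but every column used adds up to 1000000, and it was read as TPM for each RefSeq transcript. The 2 columns whose sample or group the header does not settle were not used.

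Of 107384 transcripts, 86722 (80.8%) were given a gene symbol through RefSeq's table for GRCm38.p6, holding 91.8% to 92.2% of each library's TPM, and were summed per gene. The 12520 genes whose mean reached 0.5 TPM were compared with limma 3.58.1 (R 4.3.3) on log2(TPM + 1), with trend and robust moderation, 2 libraries against 2 (2 residual degrees of freedom) and Benjamini-Hochberg adjustment over all of them. A log2 change on this scale understates that of low genes. A gene fell or rose at an adjusted p under 0.05. As the labels name no separate cultures, p-values set a change against variation between these libraries only. Through the moderation, that variation is in part shared across genes. The fit was run on simulated data with independent libraries, which cannot show whether calls hold if these libraries were not separate cultures.

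The members and lists were chosen with earlier results of these data known. Of 22 gene lists other than cell type markers, 7 hold a member. The other 15, with 364 tested genes, gave 142 that rose and 112 that fell. Members were given in full where among the 15 lowest treated shares or the 15 highest untreated means, with a few more per role. A member that this rule selects, its relatives and 1 gene list that holds a member are not reported here. Roles are textbook ones; roles, relatives and the choice of promoters shown were settled after the members were listed. Relatives share a family name, complex or pathway with a member. Those tested (111 genes for 34 members) gave 49 that fell (44.1%) and 28 that rose (25.2%). Both sets of counts stand beside 32.4% that fell and 28.4% that rose among all 12520 tested genes. From each list up to 3 changed genes were eligible to be named. Python 3.11.15 with pandas 2.3.3 and matplotlib 3.10.9 served for tables and figures.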

Additional observations from a re-analysis of the deposited data

How the results depend on the processing

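The number of members followed the limits of the rule. It was 43 at a ratio of at most 0.30, 158 at 0.40 and 127 at an untreated mean of at least 1 TPM. It was 70 at 5 TPM, 73 with median-of-ratios size factors and 100 with curated transcripts only, of which 71 were members. Leaving out 1 library gave 78 to 94 genes. Of the 81 members 70 remained without NT01, 76 without NT02, 75 without PolyIC01 and 74 without PolyIC02; the 11 lost without NT01 were Acyp1, Cd302, Dpep3, Esco2, Fancd2, Myh7b, Pif1, Plxdc1, Rab3ip, Sdc2 and Snora23. No member's treated mean exceeded 0.455 times its untreated mean under size factors, curated transcripts or leaving out any library. The count of tested genes that fell was 3402 to 4062 and that of genes that rose 2561 to 4040 over all settings run, with 3402 to 3951 and 2722 to 3756 when leaving out 1 library. Cdc42bpg reversed with curated transcripts only (log2 change -1.15, limma adjusted p = 0.00115), and the cause was not tested. No paired analysis was possible because the replicate numbers of the columns after NT01 are not settled. TPM keeps no depth, so counting error cannot be given, and it weighs most on members under 10 TPM.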
